A study of Saccharomyces cerevisiae with 23 samples.

Results

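The genes described here are the 6 B-type cyclin genes of budding yeast (CLB1, CLB2, CLB3, CLB4, CLB5 and CLB6), the cyclin-dependent kinase gene CDC28 and the gene of the kinase inhibitor SIC1. They were taken by gene name from the 6867 genes used of a meiotic RNA-seq time course, so they are 8 of 6867, and all 8 passed the filter of a mean of at least 1 FPKM (fragments on a transcript, scaled to its length and to the mapped total). All 23 libraries are total RNA of the one strain labelled A 33606. In that strain IME1, the master activator of meiotic entry, and IME4, an RNA methyltransferase gene, stand under the copper-responsive promoter of CUP1 (pCUP1-IME1 pCUP1-IME4), so that every library, 0 h included, carries both constructs. Cells grown in YPD and then BYTA medium were moved to sporulation (SPO) medium, and CuSO4 was added at 2 h to induce both genes and synchronise the culture. Times are hours in sporulation medium. The 0 h library precedes induction, and the other 22 fall into 4 windows: 2 to 3 h (5 libraries), 3.25 to 4.5 h (6), 4.75 to 6 h (6) and 6.5 to 10 h (5). The first window begins with the 2 h library, at the time given for the addition, where IME1 stood at 818 FPKM against 7908 FPKM at 2.25 h. That window thus holds 1 library in which induction had at most begun. No time was sampled again, and nothing in the labels names a separate culture or an uninduced strain, so the libraries of a window are consecutive times, not replicates, and p-values between windows measure only the spread between such libraries.

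Cdc28 is the one kinase that drives the major cell-cycle transitions of budding yeast, and it acts only when bound to a cyclin. The S-phase cyclins Clb5 and Clb6 promote DNA replication, premeiotic replication included, and the cyclins Clb1 to Clb4 act mainly in nuclear division, where Clb2 leads in mitosis and Clb1, Clb3 and Clb4 serve the meiotic divisions. Sic1 holds Clb-Cdc28 complexes inactive until it is destroyed, and the anaphase-promoting complex destroys the cyclins to end each division. In meiosis the transcription factor Ndt80 switches on the division cyclins, and the CLB3 message is known to be held from translation until meiosis II, so the RNA levels below are not levels of protein.

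The induced genes moved with the labels. IME1 stood at 40.4, 818 and 7908 FPKM at 0, 2 and 2.25 h, and IME4 at 6.08, 89.7 and 2615 FPKM. NDT80 was at most 5.51 FPKM up to 4 h and reached 438 FPKM at 6.5 h. The fragments on listed genes implied by the authors' bounds ran from 368883 at 7.5 h to 1467241 at 4.75 h, and the median FPKM of the 6560 genes tested ran from 2.55 to 19.5 in the same libraries. That median lay between 2.55 and 8.51 FPKM from 6 to 8 h and was 12.1 FPKM at 10 h. Values after median-of-ratios scaling, which sets the typical gene level across libraries, are called "scaled" below.

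The 8 genes lie on 5 chromosomes of the R64 assembly, and no other listed row overlapped any of them. CLB1 (YGR108W, chrVII:703636-705051, plus strand) and CLB6 (YGR109C, chrVII:705359-706501, minus strand) end towards each other across 307 bases. CLB2 (YPR119W, chrXVI:771653-773128, plus strand) and CLB5 (YPR120C, chrXVI:773875-775182, minus strand) do the same across 746 bases. No source used here names the strand setting of the authors' counting, so reads that run past the end of one such gene into its partner could not be told apart. CLB3 (YDL155W) is at chrIV:176773-178056, CLB4 (YLR210W) at chrXII:562008-563390, CDC28 (YBR160W) at chrII:560078-560974 and SIC1 (YLR079W) at chrXII:286820-287674, all on the plus strand.

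The 300 bases before the start codon of 4 cyclin genes are printed from the RefSeq R64 genome, 5′ to 3′ on the gene's strand, chosen after their values were seen because these genes have contrasting courses: CLB5 early and late, CLB1 late, CLB4 late and ahead of CLB1, and CLB2 low throughout. Capitals mark the matches to the motifs searched. The windows are chrVII:703336-703635 (plus) for CLB1, chrXVI:771353-771652 (plus) for CLB2, chrXII:561708-562007 (plus, of which 25 bases lie in another gene) for CLB4 and chrXVI:775183-775482 (minus) for CLB5.
CLB1: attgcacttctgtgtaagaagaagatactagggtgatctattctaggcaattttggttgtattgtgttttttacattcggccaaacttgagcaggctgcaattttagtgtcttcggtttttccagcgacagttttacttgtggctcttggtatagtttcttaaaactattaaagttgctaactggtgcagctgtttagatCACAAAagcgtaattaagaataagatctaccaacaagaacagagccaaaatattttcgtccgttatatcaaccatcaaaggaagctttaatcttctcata
CLB2: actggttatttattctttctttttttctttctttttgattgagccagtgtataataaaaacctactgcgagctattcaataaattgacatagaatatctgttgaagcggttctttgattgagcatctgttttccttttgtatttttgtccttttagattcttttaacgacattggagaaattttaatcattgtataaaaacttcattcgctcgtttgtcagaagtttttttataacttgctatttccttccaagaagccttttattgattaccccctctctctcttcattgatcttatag
CLB4: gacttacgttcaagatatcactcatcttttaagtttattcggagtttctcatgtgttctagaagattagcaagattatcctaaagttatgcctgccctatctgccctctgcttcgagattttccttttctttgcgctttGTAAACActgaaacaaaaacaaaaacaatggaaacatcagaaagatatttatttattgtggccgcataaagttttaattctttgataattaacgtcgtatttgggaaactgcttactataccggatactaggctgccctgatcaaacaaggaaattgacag
CLB5: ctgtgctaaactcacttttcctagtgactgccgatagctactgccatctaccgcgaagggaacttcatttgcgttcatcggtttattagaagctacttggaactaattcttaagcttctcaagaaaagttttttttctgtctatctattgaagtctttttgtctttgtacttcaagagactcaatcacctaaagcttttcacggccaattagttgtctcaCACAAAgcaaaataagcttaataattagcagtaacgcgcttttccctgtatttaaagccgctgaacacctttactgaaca

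CACAAA, the core of the middle sporulation element that Ndt80 and the repressor Sum1 recognise, occurred at -100 to -95 from the start codon of CLB1 and at -80 to -75 from that of CLB5. GTAAACA, the forkhead motif of Fkh1 and Fkh2, occurred at -161 to -155 in CLB4. The search covered both strands of the same 300-base window of all 8 genes, and these were its 3 matches. Of 6001 such promoters in the genome, 19.1% held CACAAA and 7.00% held GTAAACA. The longer middle element GNCACAAAA, which contains CACAAA, was in 1.83% of promoters, the MluI box ACGCGT of replication genes in 3.48% and the upstream repression core GCCGCC in 5.20%. None of these 3 was found in the windows of the 8 genes, which says only that these letters are not there.

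The S-phase cyclin genes CLB5 and CLB6 were each high at 2 separate times. CLB5 stood at 1.65 FPKM at 0 h and at 3.34, 9.61, 40.8, 62.2 and 50.4 FPKM in the 5 libraries from 2 to 3 h. It was 18.6-fold higher at 2.75 h than at 2 h, and the authors' bounds of these values, 53.8 to 70.6 and 1.49 to 5.20 FPKM, did not overlap. From 3.25 to 4.5 h its lowest value was 17.1 FPKM at 4 h, its median 23.2 and its highest 33.5 FPKM. The first high stretch thus ended before the next began: 2.75 h was 3.65-fold above 4 h, and the bounds were apart. From 4.75 to 6 h CLB5 ran from 26.9 to 82.9 FPKM with a median of 41.7, and from 6.5 to 10 h it stood at 119, 100.5, 42.9, 27.8 and 11.2 FPKM. The late maximum at 6.5 h was 6.98-fold above the 4 h value. On scaled values the late maximum was at 7 h (187).

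CLB6, the closest relative of CLB5, was also high early and late, and lay below CLB5 in 22 of the 23 libraries (at 7 h it was above). It was at 0.323 FPKM at 0 h and at 0.907, 0.665, 5.92, 7.12 and 16.4 FPKM from 2 to 3 h. Its lowest, median and highest values from 3.25 to 4.5 h were 1.70, 5.58 and 13.6 FPKM. The 3 h value was 9.61-fold above the 3.75 h value, with bounds of 11.7 to 21.0 against 0.180 to 3.22 FPKM. From 4.75 to 6 h CLB6 ran from 2.95 to 75.0 FPKM around a median of 11.6, and from 6.5 to 10 h it stood at 85.6, 106, 26.7, 19.6 and 5.46 FPKM. From 7 to 7.5 h CLB5 fell 2.35-fold as deposited and 1.12-fold on scaled values, and CLB6 3.99-fold and 1.90-fold. For both genes, each window overlapped the next in its range of values. In bulk RNA, more cells that hold a message and more message per cell cannot be told apart.

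The division cyclins CLB1, CLB3 and CLB4 each had their deposited maximum at 6.5 h and differed before it. CLB1, a mitotic and meiosis I cyclin, stood between 1.03 and 2.76 FPKM from 2 to 3 h, and from 3.25 to 4.5 h its lowest, median and highest values were 0.919, 1.70 and 2.43 FPKM. It was at 3.70, 2.74, 8.34, 27.7, 67.1 and 136 FPKM from 4.75 to 6 h, and at 202, 161, 55.8, 39.4 and 14.9 FPKM from 6.5 to 10 h. Its 6 values from 4.75 to 6 h were all above its 6 values from 3.25 to 4.5 h as deposited, while after scaling the windows overlapped, since 4.75 h (2.02) and 5 h (1.73) lay below 3.25 h (2.04). At 6.5 h CLB1 was 73.5-fold higher than at 5 h, and 174-fold on scaled values.

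CLB3 was never near 0. It stood at 8.43 FPKM at 0 h, at 10.2, 10.7, 28.1, 34.3 and 39.0 FPKM from 2 to 3 h, and between 30.5 and 47.2 FPKM with a median of 42.8 from 3.25 to 4.5 h. The 3 h value was 3.80-fold above the 2 h value with bounds apart, so CLB3 had a first step in the same hour as CLB5. Before its late rise CLB3 declined, from 47.2 FPKM at 4.25 h (bounds 40.1 to 54.3) to 28.7 FPKM at 5 h (23.3 to 34.2). On scaled values it went from 40.3 at 3.75 h to 18.1 at 5 h. From 4.75 to 6 h it ran from 28.7 to 241 FPKM with a median of 56.7, and from 6.5 to 10 h it stood at 479, 451, 172, 125 and 58.0 FPKM. The 6.5 h value was the highest of any of the 8 genes in any library, and so was the scaled maximum of CLB3, 839 at 7 h.

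CLB4 stepped up slowly before its late maximum. It was at 0.515 FPKM at 0 h, at 1.93, 1.85, 3.54, 4.38 and 7.56 FPKM from 2 to 3 h, and at a lowest, median and highest of 7.84, 10.5 and 13.6 FPKM from 3.25 to 4.5 h. Each of its 6 values from 3.25 to 4.5 h lay above each of its 5 values from 2 to 3 h. It was at 11.2, 12.2, 21.6, 51.5, 104 and 150 FPKM from 4.75 to 6 h and at 154, 114, 36.8, 20.5 and 16.1 FPKM from 6.5 to 10 h. The falls of CLB1, CLB3 and CLB4 from 7 to 7.5 h were 2.88-, 2.63- and 3.10-fold as deposited. On scaled values they were 1.37-, 1.25- and 1.48-fold.

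**Figure D1:**
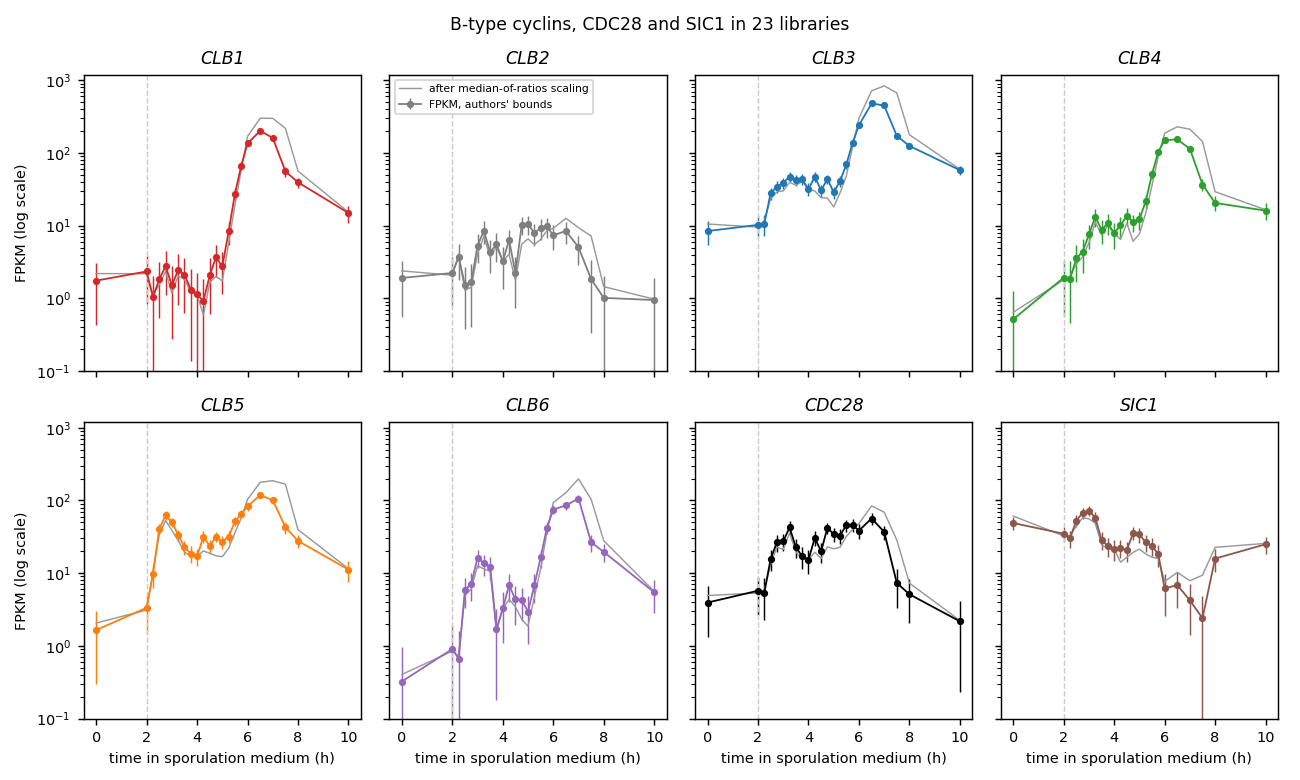
FPKM of the 8 genes, on a log axis, against hours in sporulation medium; points are the 23 libraries, bars the authors' lower and upper bounds (cut where they pass below the axis), thin grey lines the values after median-of-ratios scaling and the dashed line the addition of CuSO4 at 2 h. CLB5 and CLB6 are high early and late, and CLB1, CLB3 and CLB4 have their highest deposited value at 6.5 h. SIC1 is high early, with its lowest deposited value at 7.5 h and its lowest scaled value at 6 h.

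The late maxima were approached at different paces. At 5.75 h CLB4 had reached 67.6% of its late maximum and CLB5 55.0%, against 39.8% for CLB6, 33.3% for CLB1 and 29.0% for CLB3. After scaling these were 39.7%, 30.7%, 18.7%, 19.6% and 14.5%. NDT80 stood at 65.9% of its own maximum in that library, and at 38.8% after scaling. The deposited starting levels differed too. At 4.75 h CLB5 was already at 26.7% of its late maximum, against 9.15% for CLB3, 7.29% for CLB4, 4.01% for CLB6 and 1.83% for CLB1. Counted from 4.75 h on, CLB4, CLB5 and NDT80 first passed 50% at 5.75 h and CLB1, CLB3 and CLB6 at 6 h. After scaling CLB1, CLB4, CLB5 and NDT80 did so at 6 h and CLB3 and CLB6 at 6.5 h. With 1 library per time and steps of 0.25 to 0.5 h, these differences rest on single libraries and were not tested beyond the ratios below.

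**Figure D2:**
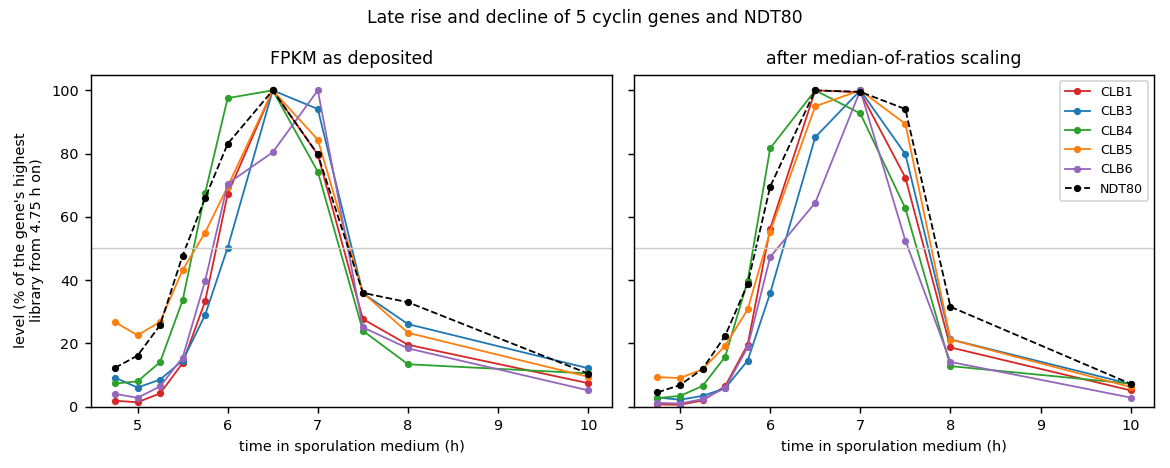
Level as a percent of each gene's own late maximum (vertical axis) against hours from 4.75 to 10 h for CLB1, CLB3, CLB4, CLB5, CLB6 and NDT80, in deposited and scaled FPKM; each point is 1 library and the grey line marks 50%. At 5.75 h the deposited values run from 29.0% for CLB3 to 67.6% for CLB4.

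CLB2, the main mitotic cyclin, stayed low. It was at 1.91 FPKM at 0 h and between 1.53 and 5.31 FPKM from 2 to 3 h. From 3.25 to 4.5 h its lowest, median and highest values were 2.22, 4.92 and 8.50 FPKM, and from 4.75 to 6 h they were 7.35, 9.50 and 10.5 FPKM. At 6.5, 7, 7.5, 8 and 10 h it stood at 8.46, 5.05, 1.85, 1.02 and 0.948 FPKM. Its scaled maximum was 12.6 at 6.5 h. At its own maximum, at 5 h, CLB2 was thus below the late maximum of every other B-type cyclin gene.

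CDC28 varied with time although its protein is classically treated as constant. It stood at 3.94 FPKM at 0 h, at 5.73, 5.40, 15.6, 26.7 and 27.5 FPKM from 2 to 3 h, and in the next window its lowest value was 15.3 FPKM (at 4 h), its median 21.3 and its highest 42.5 FPKM (at 3.25 h). The 3.25 h value was 7.42-fold above the 2 h value with bounds apart. From 4.75 to 6 h it ran from 32.9 to 45.9 FPKM with a median of 40.4. From 6.5 to 10 h it was at 56.5, 37.0, 7.33, 5.12 and 2.17 FPKM, and the first of these lay above all values of the earlier windows (after scaling the first 2 did, at 84.2 and 69.0 against at most 48.1). CDC28 at 10 h was below its 0 h value, with overlapping bounds of 0.229 to 4.12 and 1.31 to 6.57 FPKM.

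SIC1 was high early and lowest when the division cyclins were high. It stood at 48.9 FPKM at 0 h and at 34.9, 30.2, 52.9, 67.7 and 72.6 FPKM from 2 to 3 h. From 3.25 to 4.5 h it went from 57.8 FPKM in the first library to between 20.7 and 28.7 FPKM in the other 5, and the median of the 6 was 22.9. It was at 35.5, 34.0, 26.6, 23.8, 18.1 and 6.15 FPKM from 4.75 to 6 h, then at 6.88, 4.22, 2.40, 15.9 and 25.0 FPKM from 6.5 to 10 h. The highest deposited values thus fell at 2.75 and 3 h, together with the first high values of CLB5 and CLB6. On scaled values the highest was at 0 h (61.1), above 57.7 at 2.75 h and 56.1 at 3 h. The lowest deposited values fell at 7 and 7.5 h, at and after the late cyclin maxima, and the lowest scaled value at 6 h (7.68). The 10 h value was 10.4-fold above the 7.5 h value, with bounds apart, and 2.74-fold on scaled values.

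At 0 and 2 h, which are single libraries and carry no test, the deposited bounds of all 8 genes overlapped between the 2 libraries. IME1 and IME4 were already higher at 2 h. On scaled values the fold of 2 h over 0 h ran from 0.531 for SIC1 (61.1 to 32.5) to 2.79 for CLB4 (0.643 to 1.79). The summed FPKM of the 6 cyclin genes was 14.6 at 0 h, 21.0 at 2 h, 120 at 3 h, 64.3 at 4 h, 1048 at 6.5 h and 107 at 10 h. SIC1 amounted to 336% of that sum at 0 h, 166% at 2 h, 60.5% at 3 h, 0.450% at 7 h and 23.4% at 10 h. These shares come from within a library and do not depend on its scaling.

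CLB3 held the largest share of the summed cyclin FPKM in 20 of 23 libraries and CLB5 in the other 3, at 2.5, 2.75 and 3 h, with 49.9%, 55.3% and 41.9%. CLB1 held 12.0% at 0 h and 11.2% at 2 h, 0.891% at 4.25 h (on 4 implied fragments), 19.6% at 6 h and 14.0% at 10 h. CLB4 reached its largest share, 24.3%, at 5.75 h. CLB2 held 13.4% at 2.25 h and 12.5% at 5 h, and from 6.5 h on at most 0.889%. FPKM is per length, so these shares compare genes of different length.

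**Figure D3:**
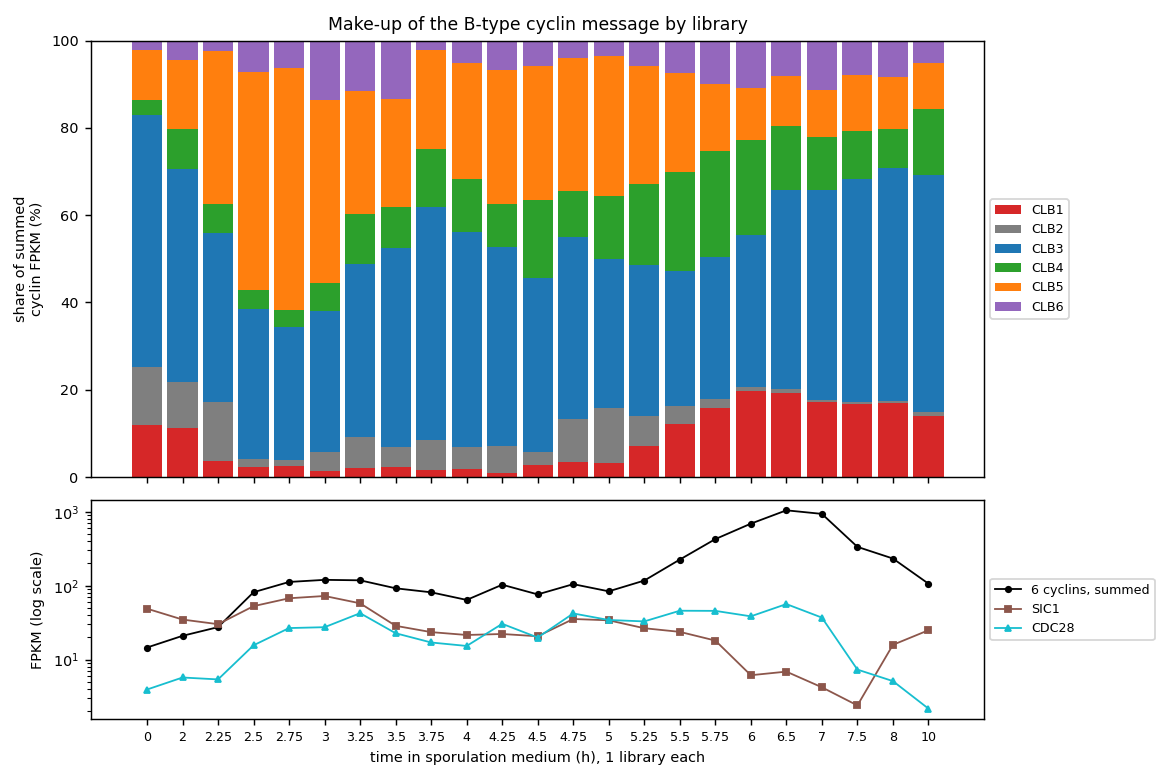
Upper panel, share of the summed FPKM of CLB1 to CLB6 held by each gene, in percent, in the 23 libraries in order of time (not spaced to scale); lower panel, the sum, SIC1 and CDC28 in FPKM on a log axis. CLB5 holds the largest share at 2.5, 2.75 and 3 h and CLB3 in the other 20 libraries.

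By mean FPKM the order from 2 to 3 h was SIC1, CLB5, CLB3, CDC28, CLB6, CLB4, CLB2 and CLB1. Of its neighbours, SIC1 was above CLB5 in 5 of 5 libraries, with bounds apart in 3, while CLB5 was above CLB3 in 3, CLB4 above CLB2 in 3 and CLB2 above CLB1 in 2 of 5. From 3.25 to 4.5 h it was CLB3, SIC1, CDC28, CLB5, CLB4, CLB6, CLB2 and CLB1, where CLB5 lay above CLB4 in 6 of 6 libraries and CDC28 above CLB5 in 2 of 6. From 4.75 to 6 h the order was CLB3, CLB4, CLB5, CLB1, CDC28, CLB6, SIC1 and CLB2, and only CLB3 was separate from its neighbour, above CLB4 in 6 of 6 libraries with bounds apart in all 6. By scaled means CLB1 (42.8) stood above CLB5 (42.2) there, and the order was otherwise the same in all 4 windows. From 6.5 to 10 h it was CLB3, CLB1, CLB4, CLB5, CLB6, CDC28, SIC1 and CLB2. There CLB3 lay above CLB1 in 5 of 5 libraries with bounds apart in all 5, CLB1 above CLB4 in 4 and CLB6 above CDC28 in 5, while CLB4 was above CLB5 in 3 of 5 with bounds apart in 1. Where neighbours changed places within a window, the order of their means was not tested. Such a change can follow time: CLB5 lay below CLB3 at 2 and 2.25 h and above it at 2.5, 2.75 and 3 h.

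Over the 22 libraries from 2 h on, all 8 genes were called in the time test, a limma fit of a natural cubic spline with 4 degrees of freedom to log2(FPKM + 1). A call needed an adjusted p under 0.05 (Benjamini-Hochberg, over the 6560 genes tested) and a fitted curve spanning 1 log2 unit or more. Whether the curve moved further above or further below where it began at 2 h set the call as a rise or a fall. Of all genes tested 83.0% were called, 31.1% as rises and 52.0% as falls, so 8 of 8 called is close to the background. After scaling, 78.0% were called, 38.1% as rises and 39.9% as falls. The fitted log2 range was 5.89 for CLB1 (limma adjusted p = 1.21e-08), 4.89 for CLB3 (adjusted p = 1.13e-07), 5.19 for CLB4 (adjusted p = 9.62e-07), 5.31 for CLB6 (adjusted p = 7.32e-06) and 3.26 for CLB5 (adjusted p = 0.000494), and their fitted maxima lay between 6.85 and 7.25 h. SIC1 fell, by a fitted 2.67 from its maximum at 2 h (adjusted p = 0.000139), and by 1.77 after scaling. CLB2 (range 2.60, adjusted p = 0.00419, fitted maximum at 5 h) and CDC28 (range 4.06, adjusted p = 0.000131, fitted maximum at 5.75 h) were called as rises, but they rise and then decline. The larger departure of CLB2 became the decline without the 2.5 h library (-2.61), and that of CDC28 without the 2 h (-4.05) or the 2.25 h library (-4.04).

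Between 3.25 to 4.5 h and 6.5 to 10 h, 4 of the 8 genes rose and 1 fell, against a background of 9.57% of genes called higher and 42.5% called lower, where a call needs an adjusted p under 0.05 and a log2 change of at least 1. CLB1 rose by 4.65 ± 0.75 (log2, SE, limma adjusted p = 3.47e-05), CLB3 by 2.26 ± 0.56 (adjusted p = 0.00168), CLB4 by 2.05 ± 0.63 (adjusted p = 0.00852) and CLB6 by 2.25 ± 0.82 (adjusted p = 0.0229). CLB6 was not called without the 3.75, 6.5 or 7 h library, with adjusted p of 0.0531, 0.0696 and 0.0809. SIC1 fell by 1.63 (SE 0.48, adjusted p = 0.00663). The median change of all genes was -0.91 as deposited and -0.12 after scaling. After scaling SIC1 was no longer called (-0.70, adjusted p = 0.0928), CLB5 was (1.90, adjusted p = 0.0284, against 0.86 and 0.239 as deposited), and 20.2% of genes were called higher and 21.9% lower. CLB2 (-0.64, adjusted p = 0.163) and CDC28 (-0.91, adjusted p = 0.187) did not pass, and their scaled values had the other sign (0.20 and 0.09). With the borders 1 library later both were called lower, CLB2 at -1.02 (adjusted p = 0.0380) and CDC28 at -1.45 (adjusted p = 0.0361), and CDC28 also without the 6.5 h library (-1.45, adjusted p = 0.0277).

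Between 3.25 to 4.5 h and 4.75 to 6 h, CLB1 alone of the 8 was called, with a rise of 2.85 ± 0.72 (log2, SE, limma adjusted p = 0.0265) against a background of 3.22% of genes called higher. That call was lost after scaling (2.67, adjusted p = 0.111, with 1.13% of genes called higher), with a pseudocount of 5 (1.96, adjusted p = 0.0768), and without any one of the libraries at 3.5, 3.75, 4, 5.5, 5.75 and 6 h, where the adjusted p ran from 0.0531 to 0.0892. CLB4 changed by 1.72 (adjusted p = 0.132) and was called with the borders 1 library later (2.37, adjusted p = 0.0157). Between 2 to 3 h and 3.25 to 4.5 h none of the 8 was called, where 0.229% of all genes were and 777 genes had an unadjusted p under 0.05.

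Between 4.75 to 6 h and 6.5 to 10 h, CLB1 (1.80, limma adjusted p = 0.0495) and CLB3 (1.44, adjusted p = 0.0335) rose and CLB2 (-1.47, adjusted p = 0.00328), CDC28 (-1.66, adjusted p = 0.0214) and SIC1 (-1.29, adjusted p = 0.0291) fell, against a background of 4.09% of genes called higher and 43.8% called lower. The 3 falls sit in the direction of most genes, whose median change was -0.99, and after scaling, which brings that median to -0.06, none of them was called (CLB2 -0.48, CDC28 -0.51, SIC1 -0.21). Both rises were called after scaling, at 2.91 for CLB1 and 2.64 for CLB3, where 15.8% of genes were called higher and 32.8% were called in either direction. With the borders 1 library later the changes of CLB1 (0.49), CLB3 (0.55) and SIC1 (-0.87) did not pass. The call of CLB1 was also lost with a pseudocount of 0.1 (adjusted p = 0.0550) or 5 (adjusted p = 0.0555) and without the filter on low values (adjusted p = 0.0559), and with a pseudocount of 5 the changes of CLB2 (-0.82) and SIC1 (-0.95) were under 1. Leaving out single libraries ended the call of CLB1 in 18 of 22 fits (adjusted p up to 0.146; it held without 5.75, 6, 8 or 10 h). It ended that of CLB3 without 4.75, 5, 5.25, 5.5, 6.5, 7 or 7.5 h (up to 0.110), that of CDC28 without 7.5, 8 or 10 h (up to 0.0728), and that of SIC1 without 4.75, 5, 5.25, 6.5, 7 or 7.5 h (up to 0.115). CLB4 (0.33), CLB5 (-0.01) and CLB6 (1.15, adjusted p = 0.247) were not called, nor were they after scaling (1.49, 1.17 and 2.25, with an adjusted p of 0.0536 for CLB6).

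**Figure D4:**
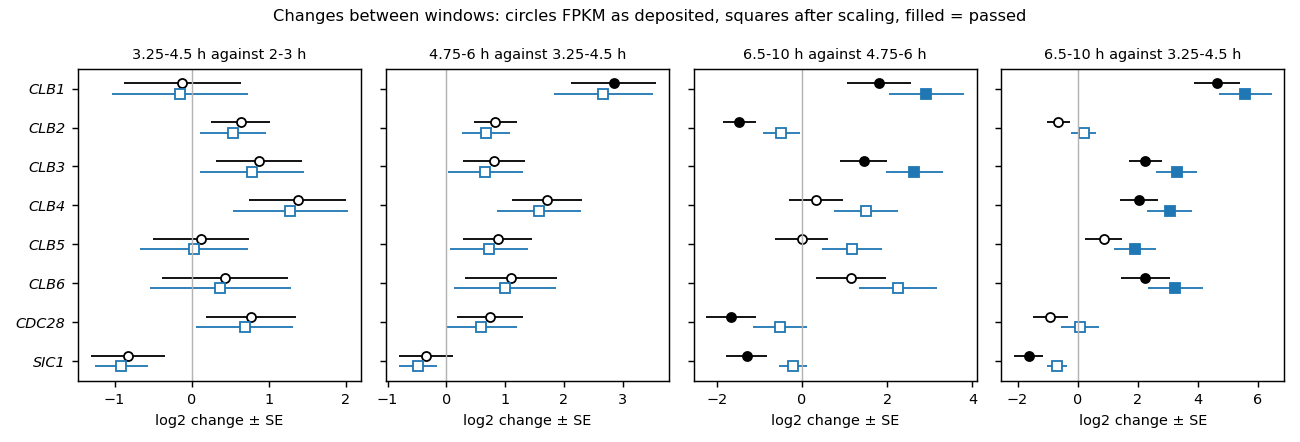
Log2 change of the 8 genes between windows of consecutive libraries (horizontal axis, log2(FPKM + 1) scale), with circles for deposited and squares for scaled FPKM; bars are standard errors from limma, and filled symbols passed the call. From 3.25 to 4.5 h to 6.5 to 10 h the deposited changes run from 4.65 for CLB1 to -1.63 for SIC1.

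Plain ratios between 2 genes of the same library do not depend on its scaling, but the tests used log2((FPKM + 1)/(FPKM + 1)). The added 1 lets scaling enter where a gene is near 1 FPKM. CLB1 was that low from 3.25 to 4.5 h (0.919 to 2.43 FPKM) and CLB2 at 8 and 10 h (1.02 and 0.948 FPKM). Ratios of scaled FPKM were not tested. The 7 ratios over 3 pairs of neighbouring windows made 21 exact two-sided permutation tests over libraries, adjusted together, of which 8 passed and 13 did not. The smallest p these tests allow was 0.00216 for 5 against 6 libraries. It was also 0.00216 for 6 against 6, where each split has a mirror image with the same absolute difference. The log2 ratio of CLB4 to CLB1 went up by 1.50 into 3.25 to 4.5 h, then down into 4.75 to 6 h (-1.13) and again into 6.5 to 10 h (-1.47), with an exact permutation p of 0.00433 and an adjusted p of 0.0182 each time. Its mean ± SD over libraries was 0.65 ± 0.71, 2.15 ± 0.31, 1.02 ± 0.60 and -0.45 ± 0.37 (n = 5, 6, 6 and 5), and the last 2 windows did not overlap. CLB4 was thus above CLB1 in each library from 3.25 to 6 h and below it in each from 6.5 to 8 h, while at 10 h it was at 16.1 FPKM against 14.9 for CLB1.

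The ratio of CLB1 to CLB3 went up by 2.04 from 3.25 to 4.5 h to 4.75 to 6 h (exact permutation p = 0.00216, adjusted p = 0.0182) with no overlap between the windows. That of CLB2 to CLB3 went down into 6.5 to 10 h (-2.92, exact permutation p = 0.00433, adjusted p = 0.0182), again with no overlap. Division cyclins therefore changed relative to one another and not only together. The other 3 that passed each failed in several fits without 1 library: CLB1 to CLB2 into 6.5 to 10 h (3.27, exact permutation adjusted p = 0.0390, failing in 7 of 22 fits), CLB3 to CLB4 into 4.75 to 6 h (-0.91, adjusted p = 0.0398, failing in 12) and into 6.5 to 10 h (1.12, adjusted p = 0.0303, failing in 9). With a pseudocount of 5, CLB1 to CLB2 (2.28, adjusted p = 0.0909) and CLB3 to CLB4 into 4.75 to 6 h (-0.72, adjusted p = 0.0519) did not pass. With all borders 1 library later, 1 of the 21 passed. The other 7 changes kept their direction there at sizes such as -1.31 and -1.19 for CLB4 to CLB1 and -2.32 for CLB2 to CLB3, with adjusted p from 0.05 to 0.175 by the exact permutation test. None of the 3 tests of CLB5 against CLB6 passed (the largest change was -1.16, exact permutation adjusted p = 0.107), and none of CLB5 against SIC1 did (1.28, adjusted p = 0.395, into the last window).

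Regulators of the 8 genes and their proteins were taken as 4 lists and read between 3.25 to 4.5 h and 6.5 to 10 h, against the background of 9.57% higher and 42.5% lower. Of 10 genes for destruction and release, 4 rose and 2 fell, with a median change of 0.02 where that of all genes was -0.91. CDC20, an activator of the anaphase-promoting complex, went from a median of 4.03 to 196 FPKM (5.16 ± 0.62, log2, SE, limma adjusted p = 1.48e-06). The Polo kinase gene CDC5 went from 8.96 to 72.0 FPKM (3.31 ± 0.72, adjusted p = 0.000623). CDH1, another activator of that complex, went from 7.64 to 40.5 FPKM (2.52 ± 0.38, adjusted p = 1.67e-05). The meiosis-specific activator AMA1, 11.2% of which is overlapped by another row, went from 104 to 819 FPKM (2.98 ± 0.56, adjusted p = 0.000146). These 4 genes were thus higher than at 3.25 to 4.5 h in the window that holds the late cyclin maxima. CDC5 had a deposited median of 246 FPKM from 4.75 to 6 h. Its change from there into 6.5 to 10 h was not called (-0.45, limma adjusted p = 0.625) and had the other sign after scaling (0.74, not called). The falls of the ubiquitin ligase genes CDC53 and SKP1, the latter 33.3% overlapped, were not called after scaling, where 5 of the 10 rose and 0 fell.

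Of 8 kinase partners, 1 rose and 5 fell (after scaling 3 and 5). CKS1, whose protein binds Cdc28, went from a median of 164 to 22.9 FPKM (-3.88 ± 0.54, log2, SE, limma adjusted p = 7.85e-06). HSL1, a kinase upstream of Swe1, changed by -2.68 ± 0.33 (adjusted p = 1.81e-06), and SWE1, which phosphorylates Cdc28 to inhibit it, by -2.30 ± 0.47 (adjusted p = 0.000325, scaled -1.52). MIH1, the phosphatase that reverses that mark, changed by -2.32 ± 0.40 (adjusted p = 5.97e-05, scaled -1.33). The inhibitory kinase and the opposing phosphatase thus fell in the same comparison, while the Cdc28-activating kinase gene CAK1 rose (1.33 ± 0.43, adjusted p = 0.0127, scaled 2.32), a call lost without the 6.5 h (0.97, adjusted p = 0.0539) or 7 h library (1.04, adjusted p = 0.0531) and with the borders 1 library later (0.90, adjusted p = 0.0875).

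Of 15 transcription factor genes, 3 rose and 3 fell (after scaling 3 and 1). NDT80 went from a median of 4.66 to 157 FPKM (4.48 ± 0.63, log2, SE, limma adjusted p = 7.98e-06), and SWI5, an activator of SIC1 in mitotic cells, from 2.40 to 9.55 FPKM (1.67 ± 0.32, adjusted p = 0.000159, scaled 2.60). RFM1, a partner of the repressor Sum1, changed by 1.20 ± 0.40 (adjusted p = 0.0135, scaled 2.23), a call lost with the borders 1 library later (1.05, adjusted p = 0.0539). IME1, which stands under the CUP1 promoter in this strain, fell (-3.42 ± 0.53, limma adjusted p = 2.34e-05). The falls of SWI4 and UME6 were not called after scaling (adjusted p = 0.206 and 0.380). Of 3 message regulators 2 fell. RIM4, whose protein holds the CLB3 message from translation, went from a median of 1453 to 66.0 FPKM (-4.05 ± 0.43, limma adjusted p = 3.07e-07). IME4, also under the CUP1 promoter in this strain, changed by -2.69 ± 0.63 (adjusted p = 0.00116, scaled -1.64). All 5 values of RIM4 in the window that holds the CLB3 maximum, at most 205 FPKM, lay below all its values from 2 to 6 h, at least 332 FPKM.

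One window earlier, from 3.25 to 4.5 h to 4.75 to 6 h, the regulators called were NDT80 (4.22 ± 0.60, log2, SE, limma adjusted p = 0.000384), CDC5 (3.76 ± 0.69, adjusted p = 0.00279), CDC20 (3.01 ± 0.59, adjusted p = 0.00505) and CAK1 (1.57 ± 0.41, adjusted p = 0.0370), all higher, against 3.22% of genes. The first 3 were also called after scaling and CAK1 was not (1.41, adjusted p = 0.155). CAK1 was also lost with a pseudocount of 5 (1.20, adjusted p = 0.0535) and in 6 of the fits without 1 library. In the time test, where 31.1% of all genes were called as rises and 52.0% as falls, 2 of the 8 kinase partners were called as rises and 5 as falls, 8 and 4 of the 15 transcription genes, 8 and 1 of the 10 genes for destruction and release, and 0 and 3 of the 3 message regulators. After scaling, with 38.1% and 39.9% of all genes, these were 4 and 4, 10 and 4, 8 and 1, and 1 and 2. The inhibitor gene FAR1 and the RNA-binding protein gene NAB3 turned from fall to rise there (FAR1 -1.28 to 2.00, NAB3 -1.12 to 1.02), and UME6 was no longer called (adjusted p = 0.234).

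The genes whose course was most like each member's were taken by Pearson's r over the 23 libraries of scaled log2(FPKM + 1), among the 3419 named genes whose mean reached 10 FPKM. The libraries are consecutive times of the same course of treatment, so r is a description with no test. The 3 most like CLB1 were HIM1 (r = 0.990), the Mediator subunit gene MED7 (0.989) and CNM1 (0.988, 34.7% overlapped by another row). For CLB3 they were the spindle kinase gene MPS1 (0.988), the silencing gene SIR4 (0.987) and CDC14 (0.986), the phosphatase that opposes Cdc28. For CLB4 they were MCH2 (0.974), ALE1 (0.968) and the spindle pole body gene BBP1 (0.968).

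CLB5 was most like PBP2 (r = 0.970, 24.6% overlapped), MRN1 (0.951) and the spindle pole body gene SPC29 (0.947), and CLB6 most like another gene of that structure, SPC42 (0.977), RIF1 (0.968) and ALK2 (0.962). CLB2, CDC28 and SIC1 had less close neighbours: the tubulin gene TUB3 (0.887), IKS1 (0.860) and CDC50 (0.858) for CLB2, INP1 (0.927), TUB3 (0.926) and SNU71 (0.925) for CDC28, and CHZ1 (0.903), HUA2 (0.899) and TOA1 (0.887) for SIC1. With deposited FPKM 14 of these 24 were again among the 3 most like. Among the 8 genes themselves, on the same scale, CLB3 and CLB6 were most alike (r = 0.955), and SIC1 had a negative r with each of the others, from -0.823 with CLB4 to -0.547 with CDC28.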

How the data were processed

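Total RNA of 1 yeast strain at 23 times was made into libraries with random hexamers, per the labels' protocols; whether the times come from 1 culture or several is not stated there. The authors deposited FPKM per gene with a lower and an upper bound, per the file headers. Bowtie and Cufflinks 2.2.1 with the builds R64 and sacCer3 are named in the submitters' processing notes; for the annotation and strand setting the sources used here give nothing. The bounds cover counting error only and were used as deposited.

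Of 7132 rows per table, 11 without an estimate and 254 without a gene name were left out, and 6867 were used. Of 6710 systematic names 6020 matched RefSeq R64, 99.1% of them at the same position. Tests used log2(FPKM + 1), which understates changes of low genes, on the 6560 genes whose mean reached 1 FPKM. They were run in limma 3.58.1 under R 4.3.3 (two-sided, trended eBayes, Benjamini-Hochberg), tested on simulated data. Implied fragments are the square of 2F / (U - F) for FPKM F and upper bound U. Scaling factors by median of ratios came from 5023 genes and ran from 0.256 at 7.5 h to 1.83 at 4.75 h. Permutation tests went through every split of the libraries, in Python 3.11.15 with NumPy 2.4.6. Motifs were searched in 300 bases before the start codon; 1 of those searched is not reported here.

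The members, lists, windows and tests were chosen with earlier results of these data known. Named are the 8 members, IME1, IME4 and NDT80, up to 4 called genes per regulator list and test, and the 3 genes most like each member. CAK1, CDC53, SKP1, RFM1, UME6, FAR1, NAB3 and IME2 are named beyond these because a call or its direction changed. Not every gene with a changed call is named. Alternatives were pseudocounts of 0.1 and 5, no filter and a mean of at least 5 FPKM, scaling, splines of 3 and 5 degrees of freedom, borders 1 library later and leaving out each library. Where a library was left out, the others keep their window.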

Additional observations from a re-analysis of the deposited data

Results flagged for a closer look

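SIC1 at 3.25 h stood apart from the other libraries of its window: it was at 57.8 FPKM, while the other 5 libraries from 3.25 to 4.5 h lay between 20.7 and 28.7 FPKM. On the log2(FPKM + 1) scale its gap to the nearest library was 0.687 of the window's range. It was the only one so marked of 32 combinations of gene and window, and chance marks about 1 in 20. The window follows a time course, and 3.25 h is its first library.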

How the results depend on the processing

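No paired analysis was possible because each time has 1 library and replicate numbers only name consecutive times. The number of the 8 genes called in the time test and from 3.25 to 4.5 h to 6.5 to 10 h stayed within 1.5 times under every alternative run. From 3.25 to 4.5 h to 4.75 to 6 h it went from 1 to 0 with a pseudocount of 5, 0 with scaling and 2 with later borders (0 to 1 without single libraries). Into 6.5 to 10 h from 4.75 to 6 h it went from 5 to 2 under each of these 3 (1 to 5 without single libraries). Over all genes, the first window comparison gave 15 calls, against 25 with a pseudocount of 5, 64 with scaling, 6 with later borders and 0 to 48 without single libraries; the next gave 222, against 103 with scaling, 363 with later borders and 98 to 314; the last gave 3144, against 2080 with a pseudocount of 5. Of the 21 ratio tests 8 passed, against 1 with later borders and 5 to 9 without single libraries. Of the 24 genes most like a member, 14 were shared with deposited FPKM.

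Directions that turned were mostly of changes that were not called. With scaling these were the time test of FAR1 (2.00) and NAB3 (1.02), CLB5 from 4.75 to 6 h to 6.5 to 10 h (1.17), and CLB2 (0.20) and CDC28 (0.088) from 3.25 to 4.5 h to 6.5 to 10 h. With other splines they were the time test of FAR1 (1.45, 3 degrees of freedom) and SWI4 (3.09, 5 degrees). With a pseudocount of 5 they were CLB5 into 3.25 to 4.5 h (-0.00818) and into 6.5 to 10 h (0.026), and the ratio CLB2 to CLB3 into 4.75 to 6 h (-0.25). With later borders they were CLB6 into 3.25 to 4.5 h (-0.068), CLB4 into 6.5 to 10 h (-0.71), and the ratios CLB5 to CLB6 into 3.25 to 4.5 h (0.075), CLB1 to CLB3 into 6.5 to 10 h (-0.061) and CLB2 to CLB3 into 4.75 to 6 h (-0.64). The cause was not tested.

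Without single libraries the time test ran from -2.61 to 2.78 for CLB2, -4.05 to 4.19 for CDC28, -2.85 to 3.17 for SWE1, -1.38 to 1.41 for FAR1, -1.94 to 2.39 for UME6, -2.65 to 2.58 for CDC53 and -4.24 to 4.91 for IME2. CLB5 into 3.25 to 4.5 h ran from -0.48 to 0.48, CLB4 and CLB5 into 6.5 to 10 h from -0.10 to 0.73 and -0.36 to 0.46, the ratio CLB5 to CLB6 into 4.75 to 6 h from -0.47 to 0.070, and the ratio CLB2 to CLB3 from -0.52 to 0.080 into 3.25 to 4.5 h and -0.27 to 0.43 into 4.75 to 6 h. The 7.5 h library, with 368883 implied fragments, limits values near 1 FPKM most.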
